A study of Mus musculus with 6 samples.

Results

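Genes of the mechanistic target of rapamycin complex 1 (mTORC1), of amino acid uptake and synthesis and of the activating transcription factor 4 (ATF4) response were examined in lung group 2 innate lymphoid cells (ILC2s) from control mice and mice with floxed Piezo1. The set has 32 genes given by a list of names from these pathways, drawn up with earlier results of these data known, and each is a column of the deposited table of 18057 genes. ILC2s are tissue-resident lymphocytes that make type 2 cytokines, and Piezo1 encodes a mechanically gated cation channel. Both groups were mouse lung ILC2s sorted after 3 intranasal doses of 1 µg recombinant IL-33 and kept for 24 h in medium holding IL-7 and IL-2, at 10 ng/mL of each cytokine. The control group has the genotype label Il7rcre, a Cre recombinase driver at the IL-7 receptor locus that acts across lymphoid cells, and is titled WT. The Piezo1_KO group has the label Il7rcrePiezo1flx, which is the same driver with floxed Piezo1. Each group had 3 libraries. The number of driver and floxed alleles, the age of the mice and whether a library is 1 animal or a pool are not stated in the labels. P-values therefore measure only how far these libraries differ, and that spread may be technical.

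As background, mTORC1 is a kinase complex that senses amino acids and growth factors and promotes protein synthesis. ATF4 is a transcription factor whose translation increases when the initiation factor eIF2 is phosphorylated under amino acid shortage or other stress, and mTORC1 can also raise it. It drives genes for amino acid transporters, for the synthesis of serine, asparagine and proline, for mitochondrial folate enzymes and for feedback inhibitors. Activated lymphocytes depend on amino acid import through these transporters for growth.

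The depth was 13059046 to 33459904 estimated counts per library. Levels are TMM-scaled counts per unit of library size (CPM), and values given by library follow replicates 1, 2 and 3 in each group. Piezo1 itself was at 247, 278 and 160.0 CPM in the control libraries against 150.0, 109 and 122 CPM in the Piezo1_KO libraries, lower in every Piezo1_KO library. Its log2 fold change, −0.85 ± 0.21 (SE), missed the threshold in the main test (adjusted p = 0.112, edgeR). It passed in DESeq2 (0.00198), in limma-voom (0.0157) and without control replicate 3 (0.0163). Reads from exons outside the floxed part would count toward the level of Piezo1, and the source of the level that remained was not tested. The summed level of 14 ILC2 identity genes was 11991 to 12874 CPM in control and 13819.7 to 14776 CPM in Piezo1_KO. Most of that sum was Il5 and Il2ra, and members were called in both directions. Il17rb rose (log2 fold change 0.74 ± 0.099, SE), while Il7r, the locus of the driver, and Icos fell (−1.03 ± 0.12 and −0.61 ± 0.086, adjusted p for the 3 genes 0.0136, 0.00722 and 0.0168, edgeR). Gata3, the lineage factor, and Thy1 missed the threshold in opposite directions. Their log2 fold changes were −0.42 ± 0.085 and 1.06 ± 0.21 (SE, adjusted p = 0.0612 and 0.0603, edgeR). Of the 14 genes, 9 had a positive and 5 a negative log2 fold change. Every Piezo1_KO library was above every control library in 6 of them and below in 4, against 10.1% and 10.5% of all genes. Summed levels of other cell types were small beside the ILC2 sum. They were 196 to 210.2 and 165 to 199 CPM for 7 of 10 T cell genes in the table, 34.4 to 40.3 and 80.2 to 104 for 3 of 7 B and plasma cell genes, and 12.2 to 17.1 and 4.31 to 5.77 for 5 of 7 mast cell and basophil genes. For myeloid genes (7 of 11 in the table) they were 5.63 to 12.7 and 4.44 to 7.63 CPM, for NK cell and ILC1 genes (2 of 6) 2.70 to 4.68 and 2.05 to 4.84 CPM, and for epithelial, endothelial and stromal genes (4 of 12, mostly Pecam1) 51.7 to 60.7 and 83.4 to 85.4 CPM. The T cell sum was mostly Bcl11b and does not show Lck, which rose (log2 fold change 1.51 ± 0.15, SE, adjusted p = 0.00384, edgeR), while Cd3e had a log2 fold change of −1.24 ± 0.34 (SE) that missed the threshold. No marker in the table was at 0 in all 6 libraries. Tbx21 had 21, 44 and 20 counts in the control libraries and 0 in the 3 Piezo1_KO libraries. It was called lower (adjusted p = 0.017, edgeR). Ighm and Pecam1 were called higher (log2 fold changes 1.79 ± 0.19 and 0.65 ± 0.096, SE, adjusted p = 0.00473 and 0.0193, edgeR). Cma1 was called lower (−2.03 ± 0.35, adjusted p = 0.0312, edgeR). The part of these lists in the results below was not tested. In bulk RNA, fewer cells of a type and less RNA per cell cannot be told apart.

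No member of the set passed the test. Of the 32 genes 31 were tested, and 0 had an adjusted p under 0.05 (Benjamini-Hochberg adjustment over 14149 genes, quasi-likelihood test of edgeR), against 1.51% of all genes tested. The count was also 0 in limma-voom and 1 in DESeq2, which called 2.44% of all genes higher and 1.65% lower. The other gene, Cbs, was removed by the filter on low counts. At an unadjusted p under 0.05 there were 4 members with a higher and 5 with a lower level in Piezo1_KO, or 29% of the members tested, against 13.2% of all genes (6.3% higher and 6.91% lower). The groups did not overlap in 11 members (4 higher, 7 lower), or 35.5%, against 20.6% of all genes (10.1% higher and 10.5% lower). The difference of these shares from the background was not tested, and the first moved with single libraries. At an unadjusted p under 0.05 there were 2 members (6.45%, against 7.47% of all genes) without Piezo1_KO replicate 2. There were 3 members (9.68%, against 8.59% of all genes) without Piezo1_KO replicate 3. Without control replicate 1, control replicate 2 or Piezo1_KO replicate 1 there were 6 (19.4%), against 12.3%, 13.3% and 12% of all genes. Without control replicate 3 there were 9 (29%, against 19.3% of all genes). The members were also measured more tightly than most genes, with a median SE of 0.112 against 0.17 for all genes tested on the log2 scale. The median log2 fold change was −0.017 over the members and 0.018 over all genes tested, and 14 members had a positive and 17 a negative value, where 53% of all genes were positive. For 30 of the 31 members the 95% interval of the log2 fold change lay within −1 to 1, so a 2-fold change in either direction was outside the interval of each of them. The exception was Vldlr.

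**Figure D1:**
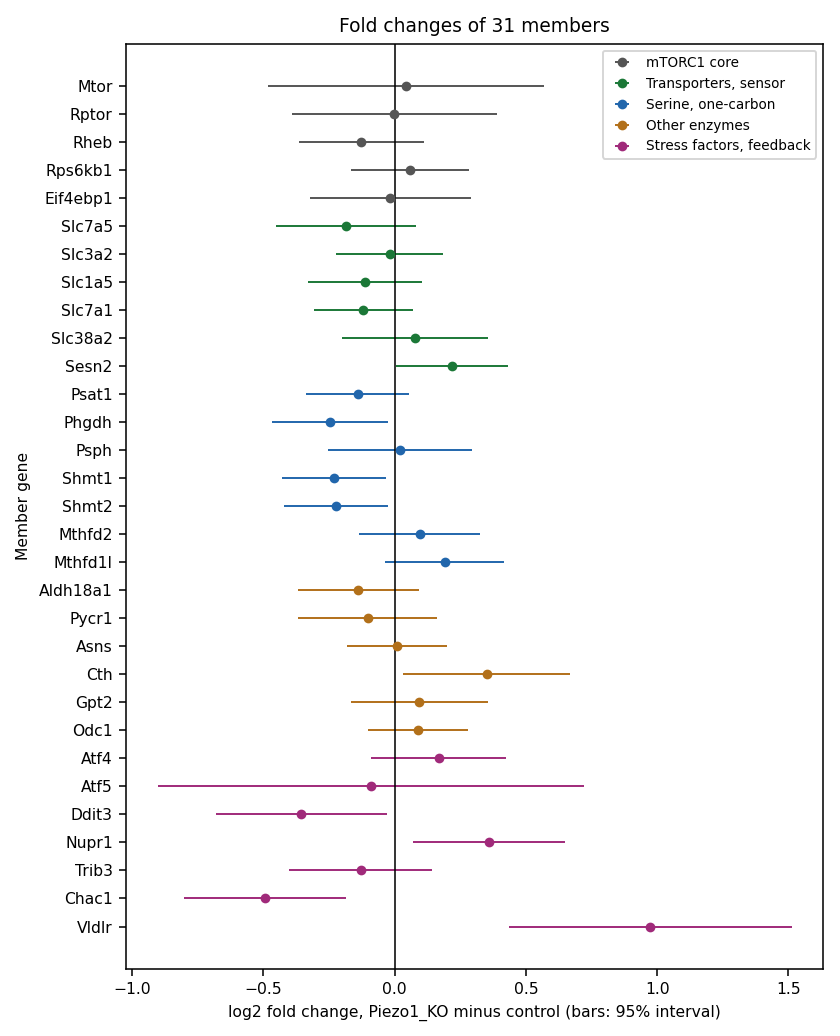
Log2 fold change of each tested member, Piezo1_KO minus control, with its 95% interval; genes are grouped and coloured by role. Points lie on both sides of 0, and the intervals of Vldlr, Nupr1, Cth, Sesn2, Chac1, Ddit3, Phgdh, Shmt1 and Shmt2 leave out 0, although none of these genes passed after adjustment.

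None of the 5 genes of the complex and its direct effectors had an unadjusted p under 0.05 or groups without overlap. Mtor, the kinase, was at 69.7, 67.98 and 36.95 CPM in the control libraries against 69.7, 53.6 and 57.6 CPM in the Piezo1_KO libraries. Control replicate 3 was lower than the other 5 libraries, and the groups overlapped. The log2 fold change of Mtor was 0.045 (95% interval −0.48 to 0.57), and without control replicate 3 it was −0.19. Rptor, which encodes the scaffold subunit Raptor, was at 55.9, 72.4 and 46.8 CPM in the control libraries against 67.2, 52.3 and 55.9 CPM in the Piezo1_KO libraries, and was likewise lowest in control replicate 3. Its log2 fold change was −0.0024 (95% interval −0.39 to 0.39). Rheb encodes the GTPase that activates mTORC1 at the lysosome. Rps6kb1 encodes the S6 kinase and Eif4ebp1 the translation repressor 4E-BP1, both substrates of mTORC1. Their log2 fold changes were −0.13 ± 0.10, 0.059 ± 0.098 and −0.017 ± 0.13 (SE), and adjusted p over the 5 core genes lay between 0.669 and 0.998 (edgeR). These values describe transcripts, and kinase activity was not measured.

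None of the 5 amino acid transporters had an unadjusted p under 0.05, and their log2 fold changes lay between −0.19 and 0.077. Slc7a5 and Slc3a2 encode the light and heavy chains of the large neutral amino acid transporter, which brings in leucine. Slc7a5 was at 878, 1043 and 802 CPM in the control libraries against 869.8, 773 and 752 CPM in the Piezo1_KO libraries. Control replicate 2 was the highest and the groups overlapped, with a log2 fold change of −0.19 ± 0.12 (SE, adjusted p = 0.559, edgeR). Slc7a5 lies on chromosome 8 (121881150 to 121907694, minus strand, mm10), 0.574 Mb from Piezo1 in GENCODE M21. Slc3a2 was at a mean of 607 ± 42.3 CPM in control against 598 ± 26.5 CPM in Piezo1_KO (SD, n = 3), with a log2 fold change of −0.019 ± 0.088 (SE). Slc1a5, the glutamine transporter ASCT2, and Slc38a2, the system A transporter SNAT2, had −0.11 ± 0.095 and 0.077 ± 0.12. Slc7a1, the cationic amino acid transporter CAT1, was at 133, 138 and 131 CPM in the control libraries against 127, 119 and 124 CPM in the Piezo1_KO libraries. All 3 Piezo1_KO libraries were below the control libraries, but the difference was small (log2 fold change −0.12 ± 0.082, SE, adjusted p = 0.595, edgeR). Sesn2 encodes Sestrin2, a leucine sensor that restrains mTORC1 and is a target of ATF4. It was at 51.1, 58.7 and 54.9 CPM in the control libraries against 62.3, 63.6 and 65.9 CPM in the Piezo1_KO libraries. Every Piezo1_KO library was above every control library, with a log2 fold change of 0.22 ± 0.093 (SE, adjusted p = 0.365, edgeR), which did not pass.

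Of the 7 enzymes of serine synthesis and folate-linked carbon transfer, 4 were lower in every Piezo1_KO library than in any control library and 0 were higher, where 10.5% and 10.1% of all genes were, and none passed the test. Phgdh, the first enzyme of serine synthesis, was at 625, 745 and 679 CPM in the control libraries against 611, 567 and 548 CPM in the Piezo1_KO libraries. The groups did not overlap, although Piezo1_KO replicate 1 lay close to control replicate 1. The log2 fold change was −0.25 ± 0.096 (SE, 95% interval −0.47 to −0.027, adjusted p = 0.314, edgeR). Psat1, which encodes the aminotransferase of the next step, also had no overlap, at a mean of 602 ± 35.3 CPM in control against 545 ± 23.9 CPM in Piezo1_KO (SD, n = 3), with a log2 fold change of −0.14 ± 0.086 (SE). Psph, the phosphatase of the last step, overlapped between the groups and had a log2 fold change of 0.019 ± 0.12 (SE). Shmt1 and Shmt2 encode the cytosolic and mitochondrial enzymes that pass a carbon from serine to folate. Shmt1 was at 76.5, 83.6 and 76.7 CPM in the control libraries against 68.9, 67.3 and 65.8 CPM in the Piezo1_KO libraries. Shmt2 was at 559, 627 and 592 CPM in the control libraries against 531, 509 and 482 CPM in the Piezo1_KO libraries. In both genes the 3 Piezo1_KO libraries were below the 3 control libraries, with log2 fold changes of −0.23 ± 0.086 and −0.22 ± 0.087 (SE, adjusted p = 0.294 and 0.313, edgeR). Mthfd2 and Mthfd1l, the mitochondrial folate enzymes downstream, had the opposite sign. Mthfd2 had a log2 fold change of 0.095 ± 0.10 and Mthfd1l of 0.19 ± 0.098 (SE), and both overlapped between the groups. Phgdh, Psat1, Shmt1 and Shmt2 were each highest in control replicate 2. Across 12 alternative fits, their log2 fold changes stayed negative, at −0.31 to −0.19 for Phgdh, −0.17 to −0.10 for Psat1, −0.26 to −0.20 for Shmt1 and −0.27 to −0.19 for Shmt2, and none passed (adjusted p from 0.187 to 0.870).

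**Figure D2:**
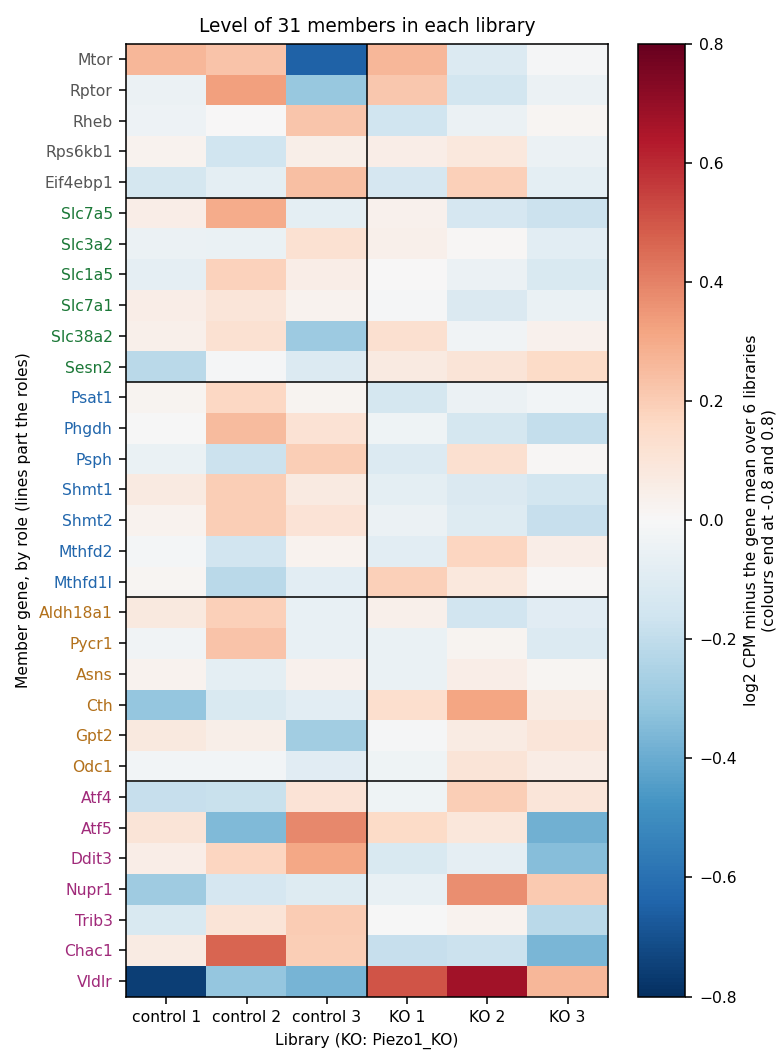
Log2 CPM of each tested member in each of 6 libraries, minus the gene's mean over the libraries; rows are grouped by role and columns are control replicates 1 to 3 and Piezo1_KO replicates 1 to 3. Vldlr is blue (below its mean) in the control libraries and red (above it) in the Piezo1_KO libraries, while Mtor is bluest in control replicate 3, at 36.95 CPM.

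Of the 6 tested enzymes for other amino acids and polyamines, 1 (Cth) had an unadjusted p under 0.05, and the rest had overlapping groups. Asns, asparagine synthetase, is a standard readout of the ATF4 response, and it was at 425, 396 and 427 CPM in the control libraries against 402, 434 and 422 CPM in the Piezo1_KO libraries. The libraries of the groups were interleaved, and the log2 fold change was 0.0097 (95% interval −0.18 to 0.20), so a change of more than 1.15-fold upward was outside the interval. Aldh18a1 and Pycr1, which act in proline synthesis, had log2 fold changes of −0.14 ± 0.10 and −0.10 ± 0.12 (SE). Gpt2, the mitochondrial alanine aminotransferase, and Odc1, the first enzyme of polyamine synthesis, had 0.094 ± 0.11 and 0.088 ± 0.083. Cth encodes cystathionine gamma-lyase, which releases cysteine in the transsulfuration pathway, and was at 11.4, 12.9 and 13.3 CPM in the control libraries against 15.5, 17.6 and 14.8 CPM in the Piezo1_KO libraries. The groups did not overlap, with a log2 fold change of 0.35 ± 0.14 (SE, adjusted p = 0.324, edgeR), which did not pass. Cbs, cystathionine beta-synthase of the preceding step, had 6, 0 and 0 counts in control replicates 1, 2 and 3 and 9, 4 and 4 counts in Piezo1_KO replicates 1, 2 and 3. It did not pass the filter on low counts, so the main fit gave no test of it. Without that filter, and in DESeq2, it was not called.

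The stress transcription factors and feedback genes held both the lowest (Chac1) and the highest (Vldlr) log2 fold change of the set, and 2 of the 7 were higher and 2 lower in every Piezo1_KO library, against 10.1% and 10.5% of all genes. Atf4 was at 269.9, 270.2 and 329.5 CPM in the control libraries against 299, 350.2 and 327 CPM in the Piezo1_KO libraries. The groups overlapped, with a log2 fold change of 0.17 ± 0.11 (SE, adjusted p = 0.592, edgeR). ATF4 is set mainly by translation, which a transcript count does not read. Atf5, a related factor, was low, at 28 to 49 counts per library, and its interval was wide (−0.90 to 0.72). Ddit3 encodes CHOP, a factor induced with ATF4 in prolonged stress. It was at 14.6, 15.9 and 17.5 CPM in the control libraries against 12.98, 13.4 and 11.1 CPM in the Piezo1_KO libraries, so that each Piezo1_KO library was below each control library. Its log2 fold change was −0.36 ± 0.14 (SE, adjusted p = 0.329, edgeR). Chac1 encodes an enzyme that degrades glutathione and is induced by ATF4 and CHOP. The gene lies on chromosome 2 (119351229 to 119354381, plus strand, mm10). Chac1 was at 26.5, 34.97 and 29.01 CPM in the control libraries against 22.3, 22.5 and 19.7 CPM in the Piezo1_KO libraries, again without overlap. Its log2 fold change of −0.49 ± 0.13 (SE) was the lowest of the set and did not pass (adjusted p = 0.149, edgeR; 0.0571 to 0.469 in 12 alternative fits). Trib3 encodes a pseudokinase that feeds back on ATF4, and its log2 fold change was −0.13 ± 0.12 (SE) with overlapping groups.

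Nupr1 and Vldlr had the opposite sign. Nupr1, a small stress-induced chromatin protein, was at 48.8, 54.1 and 55.5 CPM in the control libraries against 57.1, 76.97 and 68.8 CPM in the Piezo1_KO libraries. Piezo1_KO replicate 1 was the lowest of its group, close to control replicate 3, and the log2 fold change was 0.36 ± 0.13 (SE, adjusted p = 0.267, edgeR). Vldlr encodes the very low density lipoprotein receptor, which takes up triglyceride-rich particles and is a known ATF4 target. The gene lies on chromosome 19 (27216484 to 27254231, plus strand, mm10). Vldlr had 51, 118 and 45 counts in control replicates 1, 2 and 3 and 148, 204 and 124 counts in Piezo1_KO replicates 1, 2 and 3. On the scaled level this was 2.57, 3.52 and 3.37 CPM in the control libraries against 6.26, 7.05 and 5.30 CPM in the Piezo1_KO libraries. The groups did not overlap, and the level was 1.96-fold higher in Piezo1_KO (95% interval 1.35 to 2.85), the largest fold of the set. It missed the threshold in the main test (log2 fold change 0.97 ± 0.23, SE, adjusted p = 0.109, edgeR) and passed in DESeq2 (adjusted p = 0.0171). The adjusted p ranged from 0.0171 to 0.475 over 12 alternative fits, and the log2 fold change from 0.84 to 1.11.

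**Figure D3:**
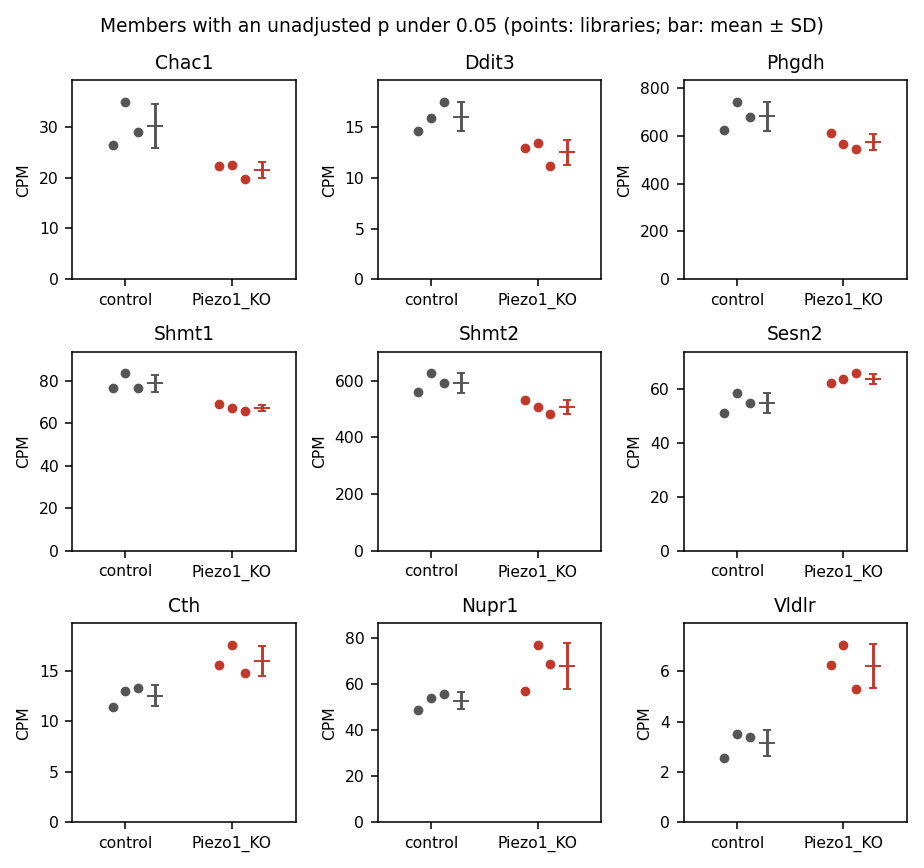
CPM of the 9 members with an unadjusted p under 0.05, in control (grey) and Piezo1_KO (red); points are the 3 libraries of a group and the bar beside them is the mean ± SD. The y axes start at 0, and the groups do not overlap in any of the 9 panels, with Vldlr at 2.57 to 3.52 CPM in control and 5.30 to 7.05 CPM in Piezo1_KO.

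The promoters of the set were searched for the core of the element that ATF4 dimers bind, TGATGNAA, on both strands, in windows from 250 bases before to 50 bases after each RefSeq start (GRCm38.p6). A window was found for 28 of the 32 members, and 6 of these held a match, or 21.4%. The share was 2.73% of the 9644 tested genes with a window and 4.51% of all 27025 genes with one. The set was named in part from known ATF4 targets, so its share is a description. The 6 members were Asns, Chac1, Nupr1, Pycr1, Trib3 and Vldlr, and they include both the lowest and the highest fold change of the set. The matches of all 6 are shown. None of the 6 passed in edgeR, and the 95% intervals of Asns, Pycr1 and Trib3 include 0, so their differing signs are a description. Each stretch of 30 bases is written with the match in capitals, read in the direction of the match.
Vldlr: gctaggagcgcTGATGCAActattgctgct
Nupr1: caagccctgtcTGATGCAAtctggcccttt
Asns: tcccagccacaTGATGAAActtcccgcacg
Pycr1: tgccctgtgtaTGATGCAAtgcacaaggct
Trib3: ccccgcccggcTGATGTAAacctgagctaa
Chac1: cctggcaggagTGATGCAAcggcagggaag
The stretches of Vldlr (chr19:27216809-27216838, minus strand), Nupr1 (chr7:126625562-126625591, plus strand), Pycr1 (chr11:120643833-120643862, minus strand) and Chac1 (chr2:119351038-119351067, minus strand) share the letters TGATGCAA. Asns (chr6:7693214-7693243, minus strand) and Trib3 (chr2:152344028-152344057, plus strand) differ at the free position. The match lies in an annotated exon of the same gene in GENCODE M21 for Asns, Nupr1 and Vldlr and outside the gene for Chac1, Pycr1 and Trib3. Counted from the RefSeq start, the near end of the match is 16 bases upstream in Asns, 96 in Pycr1, 103 in Nupr1, 186 in Chac1 and 193 in Vldlr, and 15 bases downstream in Trib3. In the order printed, the log2 fold changes were 0.97, 0.36, 0.0097, −0.10, −0.13 and −0.49. A match of letters is a description and does not show that a factor binds there.

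Other genes of these pathways were read from 5 lists. They name 129 genes besides the members, with 125 found in the table and 123 tested. Of these, 1 rose (Sesn1) and 1 fell (Slc7a2), against 1% and 0.509% of all genes called in each direction. Sesn1 encodes Sestrin1, a relative of Sestrin2 and another restraint on mTORC1. It rose from 36.1 ± 2.31 to 54.5 ± 2.72 CPM (SD, n = 3, log2 fold change 0.59 ± 0.097, SE, adjusted p = 0.0275, edgeR), and was at 38.1, 36.7 and 33.6 CPM in the control libraries against 51.5, 55.3 and 56.8 CPM in the Piezo1_KO libraries. The Piezo1_KO libraries were all above the control libraries. Sesn3, the third sestrin gene, had the opposite sign and did not pass (log2 fold change −0.30 ± 0.15, SE, adjusted p = 0.450, edgeR), and is named after its values were seen. Slc7a2 encodes CAT2, a cationic amino acid transporter that brings arginine into immune cells. It had 48, 125 and 30 counts in control replicates 1, 2 and 3 and 8, 6 and 7 counts in Piezo1_KO replicates 1, 2 and 3. Slc7a2 was 9.94-fold lower in Piezo1_KO (log2 fold change −3.31 ± 0.41, SE, adjusted p = 0.00967, edgeR), from a low level of 2.80 ± 0.814 CPM (SD, n = 3) in control. Its relative in the set, Slc7a1, had a difference of −0.12 on the log2 scale. Both calls were lost when any of 4 libraries was left out. Without control replicate 1 or Piezo1_KO replicate 1, 2 or 3, the adjusted p was 0.119, 0.101, 0.185 and 0.155 for Sesn1 and 0.0594, 0.0645, 0.0788 and 0.0637 for Slc7a2, while the log2 fold changes stayed within 0.54 to 0.63 and −3.47 to −3.06 over 12 alternative fits.

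By list, 1 of 39 mTORC1 regulators rose and 0 fell, with a median log2 fold change of −0.013. Among 18 other amino acid transporters 1 fell and 0 rose (median −0.093). In DESeq2 and in limma-voom the same 2 genes passed, and so did Slc7a3, a relative of Slc7a1 (log2 fold change 0.41 ± 0.086, SE, adjusted p = 0.0703 in edgeR), which is named after its values were seen. In the other 3 lists 0 passed in either direction in edgeR, DESeq2 or limma-voom. They were 10 translation effectors of mTORC1 (median 0.022), 23 genes of the eIF2 kinases and the integrated stress response (median 0.00055) and 34 other amino acid, folate and polyamine enzymes (median −0.012). These 3 lists had 1, 1 and 4 genes at an unadjusted p under 0.05 (10%, 4.35% and 11.8%), against 13.2% of all genes. The mTORC1 regulators had 5 (12.8%) and the other amino acid transporters 4 (22.2%). In each of the 3 lists without a call, the gene with the smallest p is named here. Pdcd4, a translation inhibitor that S6 kinase marks for degradation, had a log2 fold change of 0.47 ± 0.18 (SE, adjusted p = 0.300, edgeR). Sat1, which begins polyamine breakdown, had 0.38 ± 0.11 (adjusted p = 0.179, edgeR). Jdp2, a repressor of the AP-1 family, was at 57.8, 67.8 and 53.1 CPM in the control libraries against 20.2, 27.6 and 55.4 CPM in the Piezo1_KO libraries. Piezo1_KO replicate 3 lay among the control libraries and the other 2 were below them, with a log2 fold change of −0.80 ± 0.33 (SE, adjusted p = 0.344, edgeR). Without Piezo1_KO replicate 3, the library nearest to control, the adjusted p of Jdp2 was 0.0464 (edgeR) and its log2 fold change −1.32. It did not pass in the other 11 of 12 alternative fits. Over the 12 fits its adjusted p ranged from 0.0464 to 0.814 and its log2 fold change from −1.32 to −0.54.

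**Figure D4:**
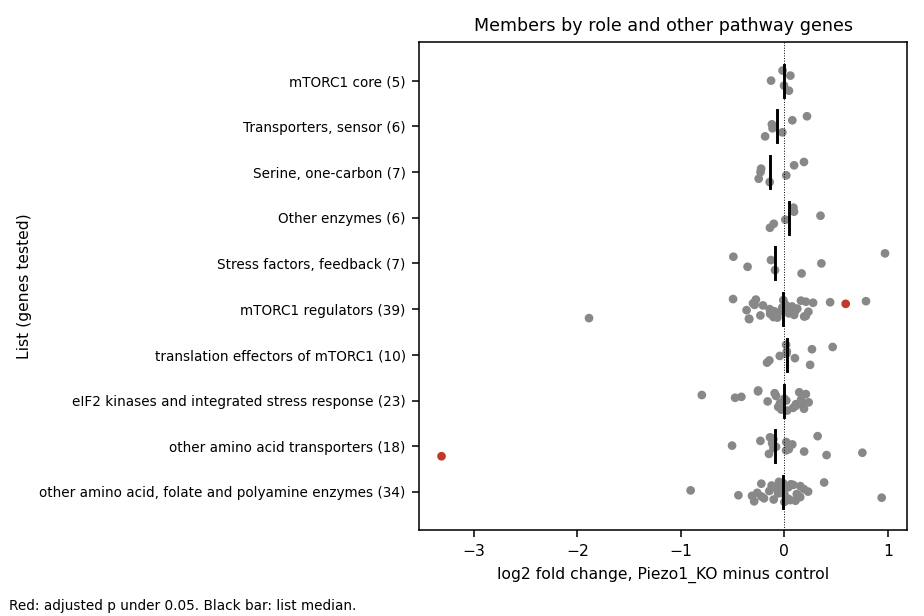
Log2 fold change, Piezo1_KO minus control, of each tested gene in the 5 role groups of the members and in 5 lists of other pathway genes; each point is a gene, the black bar is the list median and red marks an adjusted p under 0.05. The medians lie between −0.14 and 0.049, and the 2 red points are Sesn1 and Slc7a2.

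Among the libraries, control replicate 2 held the highest level of 11 of the 31 members tested (35.5%), against 26.7% of all genes tested. Piezo1_KO replicate 3 held the lowest level of 11 members (35.5%), against 14% of all genes. They were transporters (Slc7a5, Slc3a2, Slc1a5), serine and folate enzymes (Phgdh, Shmt1, Shmt2), Pycr1 and stress genes (Atf5, Ddit3, Trib3, Chac1). The median of the members, as log2 CPM around each gene's mean, lay between −0.046 and 0.047 in the 6 libraries. Within the stress factors and feedback genes it ranged more widely, from −0.22 in Piezo1_KO replicate 3 to 0.19 in control replicate 3.

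Levels were compared between genes per kilobase of merged exons in GENCODE M21, over the control libraries. Phgdh (275 CPM per kb), Slc7a5 (245), Shmt2 (191), Slc3a2 (172), Asns (152), Psat1 (141) and Atf4 (123) were the highest. Psph, the last enzyme of serine synthesis, was at 22.04 CPM per kb. Mtor (5.76) and Rptor (4.33) were far lower on this scale, and Atf5 (0.842), Vldlr (0.313) and Cbs (0.0134) the lowest. Ddit3 has no value here because its symbol occurs more than once in that annotation. Merged exons count every isoform, so the level of a gene with long rare isoforms is understated.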

How the data were processed

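The authors deposited 1 table of estimated counts, a value per gene and library that need not be whole and is not scaled. Per the submitters' processing notes the genome build is mm10. No label names the aligner, the counter, its annotation or the strand setting, so overlapping genes and close copies may share reads. Libraries are rows, matched by their description in the labels, and groups come from the titles, with the genotype labels giving the same split.

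Counts were rounded, filtered with filterByExpr (14149 genes kept), scaled by TMM and tested in edgeR 4.0.16 (R 4.3.3) by glmQLFit and glmQLFTest, two-sided and without covariates. The threshold was an adjusted p of 0.05 (Benjamini-Hochberg, over every gene tested). The standard error is the absolute log2 fold change divided by the square root of F. The biological coefficient of variation was 0.201. Log2 CPM used a prior count of 2. Replicates differed beyond sampling noise (chi-square per gene 10.9 to 59.3, where 1 is noise alone). Alternatives were RLE size factors, no filter, a stricter filter (all libraries of a group at 1 CPM or more), blocking on replicate number, each library left out, DESeq2 1.42.0 on all genes and limma-voom (limma 3.58.1) with sample quality weights.

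Members, role groups and lists were chosen with earlier results of these data known. All members are named, and from each pathway list the genes past the threshold or else the gene with the smallest p. Promoter sequences are from RefSeq (GRCm38.p6) and positions from GENCODE M21, both the same build as mm10.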

Additional observations from a re-analysis of the deposited data

How the results depend on the processing

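The count of members past the threshold was 0 in 11 of the 12 alternatives and 1 in DESeq2 (Vldlr). Over all genes, the count of 214 (142 higher, 72 lower) was 582 (347 and 235) in DESeq2, 439 (267 and 172) in limma-voom and 52 (37 and 15) when replicate number was added as a block. It was 33 to 297 (22 to 209 and 10 to 92) when each library was left out. The count was 297 without control replicate 2 and 237 without control replicate 3. Leaving out a library or adding a block also leaves fewer residual degrees of freedom. The cause of these shifts was not tested in any setting. Same-numbered libraries did not deviate together (correlations of −0.183 to −0.00752 over genes) and no library correlated best with its own number. Differently numbered libraries had correlations of −0.182 to 0.209. The highest were 0.209 for control replicate 3 with Piezo1_KO replicate 2 and 0.175 for control replicate 2 with Piezo1_KO replicate 1. These values show no pairing by number but cannot exclude one. Pairing across numbers was not tested, and the main test did not pair libraries. With the block, 3 members had an unadjusted p under 0.05 (9.68%, against 9.53% of all genes), and Sesn1 and Slc7a2 had adjusted p of 0.168 and 0.0795. The median log2 fold change of the members was −0.080 to 0.020 when each library was left out. Changes of sign were seen in members near 0. When each library was left out, log2 fold changes were −0.19 to 0.19 for Mtor, −0.14 to 0.17 for Rptor, −0.025 to 0.097 for Rps6kb1, −0.12 to 0.11 for Eif4ebp1, −0.068 to 0.039 for Slc3a2, −0.038 to 0.14 for Slc38a2, −0.079 to 0.13 for Psph, −0.043 to 0.028 for Asns, −0.010 to 0.16 for Gpt2 and −0.30 to 0.094 for Atf5. With limma-voom they were −0.099 for Mtor, 0.0076 for Rptor, 0.071 for Eif4ebp1 and −0.00015 for Asns. Rptor was at 0.0097 with the stricter filter and 0.015 with the block. Among the members, depth limits Cbs (0 to 9 counts per library) and Atf5 (28 to 49) most.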
